A study of Homo sapiens with 24 samples.

Results

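Integrins are the cell surface receptors through which cells hold on to the extracellular matrix. Each is a pair of an alpha and a beta subunit, and the pairing decides which matrix protein is bound. Talins and kindlins bind the beta tail and switch the receptor on, and ILK, FAK (PTK2), paxillin, p130Cas (BCAR1), vinculin, zyxin and the tensins connect it to the actin cytoskeleton and to kinase signalling at focal adhesions. The RNA levels of 34 such genes, namely 12 alpha subunits, 7 beta subunits and 15 adaptors, were followed through the 21386 genes of the deposited count tables. The genes were taken from a named list of integrin subunits and focal adhesion adaptors, matched by Ensembl identifier, and all 34 were found.

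A375 cells, a line from a malignant melanoma, and A549 cells, a line from a lung adenocarcinoma, gave 24 RNA-seq libraries, 12 a line, in 4 groups with 3 biological replicates apiece. In each line 2 groups carried a doxycycline (Dox)-inducible shRNA against MCM7 (shMCM7), a subunit of the replicative MCM helicase, delivered by lentivirus in the vector pRSIT17 at an MOI of 1.4 and kept as a puromycin-resistant population. The other 2 were parental cells by the labels, which give no vector for them. The study's RNA-seq methods and a legend to its expression profiles also name parental cells. Its results text and another expression figure instead describe cells with a scrambled shRNA as the control. The sources used here do not settle this conflict. Taken by the labels, vector, selection and shRNA cannot be told apart where shMCM7 cells are set against parental cells. Of each 2, 1 group had received 1 µg/ml Dox for 72 hours and the other none, and the cells of all 8 groups had been held at the G1/S boundary by a double thymidine block. The question put to these data was which genes respond to loss of MCM7 when the cell cycle stands still, in a study of how the pre-replication complex acts on cell invasion.

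The target of the shRNA is shown because it defines the perturbation.
MCM7 shRNA target: cagaggaggatttctacgaaa
It lies in the coding sequence of MCM7 on the minus strand of GRCh38, its first 3 bases at chr7:100097834-100097836 and its other 18 bases at chr7:100097728-100097745, across an exon junction. It was found whole in 5 annotated MCM7 transcripts, in transcripts of 0 other genes, and in 0 of 429 annotated transcripts of the 34 integrin and adaptor genes.

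The A375 libraries held 146656792 to 283721575 counts and the A549 libraries 17911338 to 23452823. In A375, MCM7 itself was read at 76.3 to 77.4 CPM (counts relative to the TMM-scaled library size) in the shMCM7 cells with Dox and at 344 to 369 CPM in the parental cells. The shMCM7 cells without Dox had 353 and 359 CPM in replicates 2 and 3 but 131 CPM in replicate 1, which stands apart from its group. In A549 the labels and MCM7 did not go together: MCM7 was read at 95.6 CPM in the library labelled shMCM7 with Dox replicate 3, at 100.3 CPM in that labelled shMCM7 without Dox replicate 2 and at 90.3 CPM in that labelled parental without Dox replicate 2, and at 294 to 339 CPM in the other 9. SOX10, a neural crest and melanocyte factor, was read at 489 to 666 CPM in every A375 library while every A549 library held 0. The pigment genes MLANA and TYR were at or near 0 in both lines. MITF of the same list did not mark A375, with 26.3 to 44.0 CPM there and 36.0 to 52.7 CPM in A549. PMEL also overlapped between the lines, at 1.89 to 5.15 CPM in A375 and 0.322 to 2.05 CPM in A549. KRT7, KRT8 and KRT18, keratins of simple epithelia, were read at 1655 to 2812 CPM in A549 and at no more than 362 CPM in A375.

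In A375 cells, integrin and adaptor genes moved in both directions when the shRNA was induced. A gene was called when it changed at least 1.5-fold with p under 0.01 and a false discovery rate (FDR) under 0.05 in edgeR's quasi-likelihood test over all genes, the thresholds of the study. With Dox, shMCM7 cells had higher RNA of the collagen-binding subunit ITGA11 and of the kinase gene PTK2, and lower RNA of the beta subunits ITGB8 and ITGB4, the collagen-binding subunit ITGA10 and the scaffold gene BCAR1. These were 2 up and 4 down of 34 genes tested, or 5.88% and 11.8%, where 5.58% of all 16087 genes tested were called up and 6.45% down. The median log2 fold change of the 34 genes was 0.092, beside 0.004 over all genes tested. At an FDR under 0.05 with no fold threshold, 9 of the 34 were higher and 8 lower (26.5% and 23.5%), against 20.6% and 22.4% of all genes, shares near those of the transcriptome. By role, 1 of 12 alpha subunits was called up and 1 down (median 0.10), 0 of 7 beta subunits up and 2 down (median -0.16), and 1 of 15 adaptors up and 1 down (median 0.13), all by edgeR. Tested against a 1.5-fold change itself (edgeR's glmTreat), 0 stayed called up and 1, ITGB8, down.

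Cell type markers were read in the same comparison. Of 6 melanocyte markers, 4 were tested, and the rarely read pigment genes PMEL (-0.92 ± 0.19, FDR 0.00388) and DCT (-1.43 ± 0.21, FDR 0.000761) were called down by edgeR, while the summed level of the list was 548 to 648 CPM with Dox and 626 to 655 CPM without. Of 6 epithelial markers EPCAM was called up (1.05 ± 0.18, FDR 0.00152), at no more than 0.838 CPM, and KRT19 down (-1.10 ± 0.31, FDR 0.0183, edgeR), at no more than 0.149 CPM. The summed epithelial level was 374 to 485 CPM with Dox and 355 to 417 CPM without in shMCM7 cells, and 286 to 304 CPM over both parental groups, which do not overlap with the shMCM7 groups. The part of these markers in the integrin results was not tested.

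The start-site windows of ITGB8 and ITGA11, the genes with the largest called change down and up among the 34, are shown from RefSeq (GRCh38.p14, 250 bases before and 50 after the start, 5′ to 3′ on the gene's strand), with matches to the GC box (GGGCGG or CCGCCC) in capitals. ITGB8 lies at chr7:20330650-20330949 on the plus strand and ITGA11 at chr15:68432114-68432413 on the minus strand.
ITGB8: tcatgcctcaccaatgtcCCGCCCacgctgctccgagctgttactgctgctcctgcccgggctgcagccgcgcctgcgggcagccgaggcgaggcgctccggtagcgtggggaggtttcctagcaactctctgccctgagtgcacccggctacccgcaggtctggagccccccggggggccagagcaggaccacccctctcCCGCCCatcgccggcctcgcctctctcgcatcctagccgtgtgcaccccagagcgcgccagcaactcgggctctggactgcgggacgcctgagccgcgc
ITGA11: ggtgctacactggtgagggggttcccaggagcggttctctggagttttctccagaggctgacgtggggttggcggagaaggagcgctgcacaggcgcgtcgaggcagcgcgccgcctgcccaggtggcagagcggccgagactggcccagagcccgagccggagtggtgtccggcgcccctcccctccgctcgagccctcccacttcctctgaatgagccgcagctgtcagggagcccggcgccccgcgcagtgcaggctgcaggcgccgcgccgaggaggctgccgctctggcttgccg

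Both windows are rich in G and C, at 71.7% for ITGB8 and 72.0% for ITGA11. The ITGB8 window holds 2 GC boxes and the ITGA11 window 0, where 45.0% of 35116 windows of the same length hold at least 1. Neither window holds the AP-1 motif TGANTCA (7.71% of all windows), the CRE motif TGACGTCA (1.85%) or the TEAD motif GGAATG (14.0%), each searched on both strands. These are matches of letters and say nothing on binding.

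ITGB8 (chr7:20330702-20415754, plus strand, GRCh38 with GENCODE 29, as for all genes here) showed the largest change of the 34. Its product pairs with the alpha V subunit and is known for releasing latent TGF-beta. ITGB8 was read at 39.9, 40.9 and 35.8 CPM in shMCM7 cells with Dox and at 78.1, 105 and 105 CPM without it. The parental libraries held 116, 109 and 98.5 CPM with Dox and 99.0, 109.9 and 116 CPM without. All 3 libraries with induced shRNA lay below the other 9 A375 libraries, and the lowest of those 9 was shMCM7 without Dox replicate 1, the library with low MCM7. The log2 fold change was -1.31 ± 0.11 (SE), with an FDR of 6.26e-05 by edgeR's quasi-likelihood test, adjusted after Benjamini and Hochberg, and -1.44 without that library. In bulk RNA, fewer cells with a transcript and less of it per cell cannot be told apart, here and in all that follows.

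ITGB4 (chr17:75721328-75757818, plus strand), whose product pairs with alpha 6 in the laminin receptor of hemidesmosomes, was read at 46.6, 31.3 and 39.0 CPM in shMCM7 cells with Dox and at 43.1, 67.7 and 71.4 CPM without. Parental cells had 60.6, 53.4 and 48.5 CPM with Dox and 56.3, 48.1 and 63.9 CPM without. The induced libraries lay below every parental library but overlapped with shMCM7 without Dox replicate 1. Its log2 fold change was -0.64 ± 0.19 (FDR 0.0206, same edgeR test) and -0.84 without that library. The call was lost on leaving out shMCM7 with Dox replicate 2 (-0.51) or 3 (-0.64) or shMCM7 without Dox replicate 2 (-0.56) or 3 (-0.51), and DESeq2's Wald test did not make it (adjusted p 0.0398, raw p over the 0.01 required).

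The other beta subunits stayed under the fold threshold. ITGB5, a partner of alpha V on vitronectin, was higher with Dox in all 3 libraries, at 230.1, 245 and 257 CPM against 188, 183 and 189.8 (log2 fold change 0.38 ± 0.055, FDR 0.000635, same edgeR test). ITGB7, a leukocyte subunit, was lower at 5.92, 5.29 and 4.62 CPM against 7.42, 8.05 and 6.83 (-0.50 ± 0.11, FDR 0.00545, edgeR) and called without induced replicate 1 (-0.59), although 42.1% of its exonic bases also lie under ZNF740 on the opposite strand, and reads of the pair cannot be assigned without the strand setting of the counting. ITGB1, the common partner of most alpha subunits, gave 0.11 ± 0.058 on the log2 scale (FDR 0.148), ITGB3 -0.16 ± 0.13 (FDR 0.359) and ITGB6 -0.024 ± 0.31 (FDR 0.956), none of which passed the edgeR test. Of ITGB3's exonic bases, 51.6% are shared with the same-strand annotation AC068234.1, so its level is uncertain. Smaller overlaps touch VCL (11.1% with AP3M1, other strand), BCAR1 (8.59% with AC009078.3, same strand), ITGAE (6.41% with HASPIN, other strand) and ITGA1 (2.56% with PELO, same strand).

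The 4 collagen receptors among the alpha subunits, ITGA1, ITGA2, ITGA10 and ITGA11, all pair with ITGB1 and did not move together. ITGA11 (chr15:68296533-68432162, minus strand) was read at 5.59, 6.07 and 6.57 CPM in shMCM7 cells with Dox and at 3.48, 3.15 and 3.53 CPM without. Parental cells held 3.14, 3.47 and 3.69 CPM with Dox and 3.35, 3.34 and 3.96 CPM without. The induced libraries lay above all other A375 libraries, with a log2 fold change of 0.84 ± 0.096 (FDR 0.000201, same edgeR test). ITGA11 remained one of the rarest alpha subunits all the same, at 0.312 ± 0.0191 CPM per kb of exon before and 0.559 ± 0.0447 CPM per kb after induction (SD, n = 3).

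ITGA10 (chr1:145891208-145910189, minus strand), the chondrocyte collagen receptor subunit, went the other way, with 15.9, 16.2 and 18.9 CPM in shMCM7 cells with Dox and 20.7, 27.3 and 31.5 CPM without. Parental cells had 18.4, 22.1 and 29.4 CPM with Dox and 19.0, 27.9 and 35.3 CPM without. The induced libraries lay below the uninduced ones, but overlapped with the parental libraries with Dox. In each of the 4 A375 groups ITGA10 was lowest in replicate 1 and highest in replicate 3, an order that only ITGA9 shared among the 34 genes. The log2 fold change was -0.65 ± 0.14 (FDR 0.00449, same edgeR test), -0.80 without shMCM7 without Dox replicate 1, and -0.50 and no longer called without replicate 3 of that group.

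ITGA1 (chr5:52787896-52959210, plus strand) stood at 331, 371 and 324 CPM in shMCM7 cells with Dox and at 214, 252 and 228 CPM without, and at 180.5, 182 and 195 CPM and 195, 243 and 229.7 CPM in parental cells with and without Dox. The induced libraries were the 3 highest of the 12. Its log2 fold change of 0.56 ± 0.076 (FDR 0.000435, same edgeR test) was just under the 1.5-fold threshold, whose log2 is 0.58, and passed it without induced replicate 3 (0.60) or uninduced replicate 2 (0.63). ITGA2, the platelet-type collagen receptor subunit, gave 0.11 ± 0.067 and did not pass (FDR 0.218).

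The remaining alpha subunits were within 1.5-fold. Among the laminin receptors, ITGA3 was higher with Dox (0.31 ± 0.068 on the log2 scale, FDR 0.00577) and ITGA7, a muscle subunit, lower (-0.49 ± 0.073, FDR 0.000735), while ITGA6 did not pass (0.10 ± 0.057, FDR 0.191; all by the same edgeR test). ITGA5, the fibronectin receptor subunit, was read at 228, 252 and 253 CPM with Dox against 212, 183 and 196 CPM (log2 fold change 0.30 ± 0.068, FDR 0.00604, same edgeR test), and ITGAV, the shared RGD-binding partner of ITGB3, ITGB5, ITGB6 and ITGB8, gave 0.12 ± 0.066 (FDR 0.173). Of the remaining subunits, ITGAE, known from leukocytes, was lower (-0.20 ± 0.067, FDR 0.0391, edgeR), and ITGA4 (-0.058) and ITGA9 (-0.30) did not pass.

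Among the adaptors, the kinase gene PTK2 and the scaffold gene BCAR1, whose products are neighbours in the same signalling complex, were called in opposite directions. PTK2, which encodes focal adhesion kinase, was read at 98.3, 108 and 111 CPM in shMCM7 cells with Dox and at 64.7, 67.4 and 66.8 CPM without. Parental cells had 63.4, 61.0 and 64.2 CPM with Dox and 61.7, 66.9 and 63.1 CPM without. The 3 induced libraries lay far above the other 9, which spanned only 61.0 to 67.4 CPM. The log2 fold change was 0.67 ± 0.057 (FDR 6.45e-05, same edgeR test).

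BCAR1 (chr16:75228187-75268053, minus strand), which encodes the FAK and Src substrate p130Cas, was read at 56.3, 35.1 and 39.7 CPM in shMCM7 cells with Dox and at 67.9, 65.3 and 71.8 CPM without. Parental cells had 65.4, 80.8 and 71.1 CPM with Dox and 80.4, 65.4 and 73.4 CPM without. The induced libraries lay below all others but spread widely among themselves, replicate 1 being the highest. The log2 fold change was -0.65 ± 0.14 (FDR 0.00590, same edgeR test), -0.51 without induced replicate 2 and -0.58 without induced replicate 3, neither of which was called.

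The adaptors at the integrin tail gave smaller differences. TLN1, TLN2 and FERMT2 gave log2 fold changes of 0.085, 0.23 and 0.042, none of which passed, and FERMT1, the epithelial kindlin, was lower by less than 1.5-fold (-0.29 ± 0.058, FDR 0.00329, edgeR). In the ILK, PINCH and parvin complex, ILK was higher at 118, 123 and 125 CPM against 101, 99.8 and 101 (0.28 ± 0.047, FDR 0.00152, edgeR), with 68.1% of its exonic bases under TAF10 on the other strand, while LIMS1 (0.16), PARVA (0.13) and PARVB (-0.025) did not pass. Of the actin linkers, VCL (0.21 ± 0.073, FDR 0.0418) and TNS1 (0.51 ± 0.13, FDR 0.0110) were higher under the fold threshold by the same edgeR test (TNS1 was called without induced replicate 1, at 0.61, or uninduced replicate 3, at 0.66), and ZYX (0.14), TNS3 (-0.027) and the paxillin gene PXN (-0.11) did not pass.

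In parental A375 cells given Dox no integrin or adaptor gene was called. Of 34 tested 0 were called by edgeR's quasi-likelihood test and 0 by DESeq2, as were 0% of 15993 genes by edgeR. At an unadjusted p under 0.05 there were 6 of the 34 genes, and 1121 of the 15993 genes tested (edgeR). The median log2 fold change was 0.007, beside -0.001 over all genes. This median pools roles that leaned apart. Of 12 alpha subunits 3 were higher and 9 lower (median -0.10), and of 7 beta subunits 3 higher and 4 lower (median -0.003). Of 15 adaptors 12 were higher and 3 lower (median 0.037).

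Whether the response to Dox differed between shMCM7 and parental cells was tested in 1 model over the 12 A375 libraries. The difference was called up for ITGA11 (0.88 ± 0.14 on the log2 scale, FDR 0.000540), ITGA1 (0.81 ± 0.12, FDR 0.000207) and PTK2 (0.68 ± 0.073, FDR 3.24e-05), and down for ITGB8 (-1.31 ± 0.15, FDR 4.31e-05) and BCAR1 (-0.64 ± 0.19, FDR 0.0228; all by edgeR's quasi-likelihood test). These 3 up and 2 down of 34 genes (8.82% and 5.88%) compare with 4.37% and 6.17% of 16334 genes tested. At an FDR under 0.05 at any fold, 9 up and 4 down (26.5% and 11.8%) compare with 13.5% and 16.5%. The median difference was 0.065 beside -0.004 over all genes. ITGA1 was called here although not in shMCM7 cells alone, its log2 fold change being 0.56 in shMCM7 and -0.26 ± 0.074 in parental cells (the latter with an FDR of 0.551). ITGB4 (-0.60 ± 0.25, FDR 0.0818) and ITGA10 (-0.42 ± 0.29, FDR 0.300) did not pass as differences in the same edgeR test. ITGB4 did so without shMCM7 without Dox replicate 1 (-0.79, FDR 0.00915) and, with ITGB7 (-0.65), without induced replicate 1 (-0.75). The BCAR1 call was lost without induced replicate 2 (-0.50) or 3 (-0.57), without shMCM7 without Dox replicate 3 (-0.60), and without parental replicate 2 with Dox (-0.55), 2 without Dox (-0.56) or 3 without Dox (-0.64).

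Set against parental cells with Dox in both, induced shMCM7 cells had 4 genes called up and 2 down (11.8% and 5.88% of 34), beside 7.64% up and 8.39% down of 16086 genes, with medians of 0.11 and 0.004. At an FDR under 0.05 at any fold, 13 were higher and 7 lower (38.2% and 20.6%), beside 23.2% and 24.8% of all genes. TNS1 (1.19 ± 0.099, FDR 2.36e-05), ITGA1 (0.87 ± 0.064, FDR 1.30e-05), ITGA11 (0.81 ± 0.099, FDR 0.000187) and PTK2 (0.74 ± 0.058, FDR 1.66e-05) were higher, and ITGB8 (-1.48 ± 0.076, FDR 2.63e-06) and BCAR1 (-0.73 ± 0.16, FDR 0.00447) lower, by the same edgeR test. This comparison shares its induced libraries with the Dox comparison above, so the lists are not independent.

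The tensin gene TNS1 (chr2:217799588-218033982, minus strand), whose product links beta tails to actin filaments, already differed before induction. It was read at 8.58, 9.43 and 11.8 CPM in shMCM7 cells without Dox and at 5.33, 5.39 and 6.47 CPM in parental cells without Dox. With Dox the values were 12.4, 14.2 and 16.1 CPM in shMCM7 and 6.40, 6.11 and 6.13 CPM in parental cells. All shMCM7 libraries lay above all parental libraries, and the induced ones above the uninduced. Before induction its log2 fold change was 0.80 ± 0.12 (FDR 0.00700, same edgeR test). It was 0.90 without the shMCM7 replicate 1 of low MCM7, and 0.75 and no longer called without parental replicate 2 (FDR 0.0541, edgeR). These fits did not pair the replicate numbers.

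TNS1 was the single gene of the 34 called in that comparison (2.94%), where 1.17% of 16093 genes were called up and 0.478% down, with medians of 0.006 and -0.004. Under the fold threshold VCL (0.28 ± 0.062, FDR 0.0408) and ZYX (0.28 ± 0.059, FDR 0.0345) were also higher in uninduced shMCM7 cells by edgeR. ITGA6 was lower (-0.35 ± 0.047, FDR 0.00283, same edgeR test). With TNS1, 3 were up and 1 down at any fold (8.82% and 2.94%), beside 1.90% and 1.07% of all genes. The TNS1 difference in the response to Dox was 0.39 ± 0.17 and did not pass (FDR 0.101, edgeR).

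Levels per kb set the subunits side by side, in an order that depends in part on the length used, here the union of a gene's annotated exons. Over the 12 A375 libraries ITGA6 made up a median of 25.6% of the summed alpha level (22.4% to 30.7%), ITGA3 22.7% (19.2% to 26.8%), ITGA5 16.1% (13.2% to 18.1%) and ITGA2 11.8% (10.5% to 13.1%). The ranges of ITGA6 and ITGA3 overlap. ITGA1 (7.47%) and ITGAV (6.98%) followed, and ITGA4, ITGA10, ITGAE, ITGA7, ITGA9 and ITGA11 had medians from 2.81% down to 0.207%. Of the beta level, ITGB1 held 33.2% (29.1% to 37.5%), ITGB3 29.9% (24.5% to 37.7%) and ITGB5 23.0% (20.6% to 30.8%), ranges that overlap in part, and ITGB4, ITGB8, ITGB7 and ITGB6 held medians of 5.98%, 5.14%, 1.10% and 0.0218%.

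Per kb of the longest transcript, ITGA3 stood above ITGA6 in all 4 A375 groups, at 65.8 against 45.8 CPM per kb in shMCM7 cells without Dox and 62.0 against 58.6 in parental cells without Dox. ITGA1 then stood above ITGA2 in shMCM7 cells, at 21.5 against 19.0 CPM per kb without Dox and 31.8 against 20.5 with it, but below ITGA2 in parental cells. ITGB1 stood clear of the other beta subunits, at 66.2 CPM per kb in shMCM7 cells without Dox, where ITGB5 (42.8) lay above ITGB3 (41.2). In parental cells ITGB3 lay above ITGB5 by either length. The order of these pairs is therefore not settled by the data.

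Per kb of exon union ITGB8 made up 5.05% ± 0.567 of the beta level in shMCM7 cells without Dox and 2.03% ± 0.183 with it, and ITGB5 23.3% ± 1.96 and 30.0% ± 0.844 (SD, n = 3), given as a description without a test. Their common partner ITGAV stood at 11.2 ± 0.206 CPM per kb before and 12.2 ± 1.04 after (SD, n = 3). ITGA6, the partner of ITGB4, was at 39.4 ± 1.36 and 42.2 ± 2.22 CPM per kb, and ITGB1, the partner of ITGA1, ITGA10 and ITGA11, at 41.7 ± 1.35 and 45.1 ± 2.56 CPM per kb. Of the alpha level, ITGA1 held 7.83% ± 0.616 before and 10.1% ± 0.575 after, ITGA10 2.63% ± 0.494 and 1.47% ± 0.136, and ITGA11 0.196% ± 0.0122 and 0.305% ± 0.0192.

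Genes that act next to integrins were read in the same comparison of shMCM7 A375 cells, where 5.58% of all genes were called up and 6.45% down. Of 35 matrix ligands tested 5 were called up, FN1 and POSTN included, and 1 down (14.3% and 2.86%), with a median of 0.025. The matricellular genes CCN1 and CCN2 and the thrombospondin gene THBS1 led, with log2 fold changes of 1.06 ± 0.090 (FDR 6.38e-05), 0.79 ± 0.12 (FDR 0.000804) and 0.99 ± 0.17 (FDR 0.00144), and TGFB1, whose latent form is a ligand of alpha V integrins, was lower (-0.75 ± 0.080, FDR 0.000149; same edgeR test). CCN1 was read at 260.1, 255 and 251 CPM with Dox against 136, 127 and 104 CPM, and TGFB1 at 63.7, 52.3 and 55.1 CPM against 90.1, 93.7 and 103 CPM, and the groups did not overlap for either. CCN1 had already been higher in uninduced shMCM7 than in parental cells (0.70 ± 0.12, FDR 0.00964, edgeR). In that comparison 4 of 35 ligands tested, CCN1 included, were called up and 0 down. Of all 16093 genes tested there, 1.17% were called up and 0.478% down. The ligand list thus already differed before induction.

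Of 10 membrane partners 0 were called up and 2 down by edgeR (20% down), with a median of -0.086. SLC3A2, the CD98 heavy chain that binds beta tails and carries amino acid transporters, fell from 519, 537 and 401 to 244, 209 and 205 CPM (-1.15 ± 0.11, FDR 9.64e-05), and the tetraspanin gene CD82 from 18.5, 18.8 and 18.2 to 9.66, 9.56 and 9.49 CPM (-0.95 ± 0.061, FDR 3.04e-05; same edgeR test). Of 53 further adhesion genes tested 1 was called up and 2 down (1.89% and 3.77%), namely SORBS2 (0.61 ± 0.15, FDR 0.00906), at 124, 119 and 90.4 against 76.7, 84.2 and 57.7 CPM, upward and the rarely read PARVG (-0.93 ± 0.17, FDR 0.00200) and TNS4 (-1.05 ± 0.24, FDR 0.00698) downward by edgeR. Of 5 other integrin subunits tested 0 were called by edgeR, ITGAM reaching an unadjusted p of 0.028 (FDR 0.0611).

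Most of the 34 genes differed between the lines. With the 4 groups of each line averaged, 13 of the 34 genes were called higher in A375 and 14 higher in A549 (38.2% and 41.2%), beside 33.0% and 27.6% of 16305 genes, with a median log2 difference of 0.084 beside 0.091 over all genes. At an FDR under 0.05 at any fold 15 were higher in each line (44.1% each), beside 47.5% and 41.4% of all genes. The lines also differed in depth without overlap, and line and depth cannot be told apart here. For 13 genes all A375 libraries lay above all A549 libraries and for 13 the reverse held (38.2% each), beside 33.2% and 25.9% of all genes, and 8 overlapped.

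A375 had more RNA of the alpha subunits ITGA9, ITGA4, ITGA1, ITGA10, ITGA7, ITGA5, ITGA2 and ITGA6 and of ITGB8, ITGB3 and ITGB7. ITGB8 ranged from 35.2 to 115 CPM in A375 and from 1.19 to 3.17 CPM in A549 (log2 difference 5.32 ± 0.082, FDR 9.93e-23), ITGA4 at 32.7 to 40.3 against 0.611 to 2.22 CPM (5.01 ± 0.14, FDR 1.23e-18) and ITGB3 at 129.9 to 235 against 3.53 to 17.1 CPM (4.11 ± 0.17, FDR 1.52e-15, same edgeR test). A375 libraries held 3.60 to 8.89 CPM of ITGA9 and A549 libraries 0 to 0.0556 CPM, under the 0.128 to 0.167 CPM that 3 counts make in those libraries, so no fold is given for it. The adaptor genes PXN (1.40 ± 0.10) and FERMT1 (0.79 ± 0.098) were also higher in A375.

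A549 had more RNA of ITGB1, ITGAV, ITGB4, ITGB6, ITGA3, ITGAE and ITGB5, and of the adaptor genes LIMS1, TNS3, VCL, FERMT2, PTK2, ILK and TNS1. ITGB6, the epithelial partner of alpha V, was read at 6.86 to 12.9 CPM in A549 and at 0.0846 to 0.180 CPM in A375 (-6.13 ± 0.14, FDR 8.99e-20), and ITGB1 at 1214 to 1661 against 229 to 277 CPM (-2.50 ± 0.042, FDR 4.12e-22, same edgeR test). ITGB1 made up 70.7% of the beta level in A549 (68.0% to 76.7%) and ITGAV 25.7% of the alpha level (23.4% to 37.0%), against medians of 33.2% and 6.98% in A375. TNS1 overlapped between the lines, at 5.24 to 15.9 CPM in A375 and 8.01 to 23.6 CPM in A549. Its call (-0.68 ± 0.15, FDR 0.000355, edgeR) was lost without any of the 3 A549 libraries low in MCM7 (-0.58, -0.58 and -0.53) and under glmTreat.

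In A549 compared by label, 0 of 32 genes tested were called with Dox in shMCM7 cells and 0 of 33 in parental cells by edgeR's quasi-likelihood test, and 0 by DESeq2 in each. Over all genes 0% of 13550 and 0% of 13494 were called by edgeR. At an unadjusted p under 0.05 there were 1 and 4 of the genes, beside 61 and 1137 of all genes, and the medians were 0.015 and -0.068, beside 0.003 and -0.008. Without parental replicate 3 without Dox, ITGB4 was called up in parental cells (0.84, FDR 0.0287, edgeR). Since MCM7 was low in 1 library each of 3 different groups, these comparisons do not set cells with low MCM7 against cells with high MCM7.

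The A549 values were therefore also read library by library beside MCM7, as a description without a test, with the 3 libraries under 150 CPM MCM7 set beside the 9 over 250. Of the 33 genes that passed the count filter, 18 were higher in all 3 than in all 9 and 6 were lower (54.5% and 18.2%). The same held for 21.7% and 17.7% of 13785 genes. With DESeq2's scaling the counts were 17 and 8. The labels give no condition to this split, and what it stands for was not tested.

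ITGA11 was read at 6.30, 7.11 and 7.16 CPM in the 3 libraries low in MCM7 (those labelled shMCM7 with Dox replicate 3, shMCM7 without Dox replicate 2 and parental without Dox replicate 2, in this order throughout) and at 1.87 to 3.36 CPM in the other 9. PTK2 was read at 206, 197 and 204 CPM in the 3 and at 118 to 143 CPM in the 9. The 3 and the 9 did not overlap for either gene, and both were called up in induced A375 cells.

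The 4 genes that were called down in A375 did not separate the A549 libraries. ITGB8 was read at 2.79, 1.80 and 1.33 CPM in the 3 and at 1.17 to 3.10 CPM in the 9. ITGA10 stood at 2.14, 2.83 and 2.61 CPM against 1.90 to 2.87 CPM, and ITGB4 at 282, 219 and 157 CPM against 198 to 333 CPM. BCAR1 was read at 38.1, 37.1 and 21.4 CPM in the 3 and at 38.0 to 76.1 CPM in the 9, which overlap by the narrowest margin and part under DESeq2's scaling.

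The subunits and adaptors higher in all 3 were ITGA11, ITGA1, ITGA5, ITGA7, ITGAV, ITGB1, ITGB3, ITGB5, TLN1, TLN2, FERMT2, ILK, LIMS1, PARVA, PTK2, VCL, TNS1 and TNS3. FERMT2, the widely expressed kindlin, was read at 132, 131 and 139.9 CPM against 63.6 to 82.5 CPM, VCL at 585, 553 and 542 against 327 to 366 CPM, and TNS3 at 569, 502 and 514 against 231 to 295 CPM. TNS1 overlapped under DESeq2's scaling. ITGB3 parted by a narrow margin, at 14.5, 17.0 and 16.1 CPM against 3.40 to 14.2 CPM. The annotation overlaps given above, such as those of ITGB3 and ILK, apply here too. Those lower in all 3 were ITGA6, ITGAE, ITGB7, FERMT1, PARVB and PXN. PXN was read at 153, 143 and 128 CPM against 222 to 280.3 CPM and FERMT1 at 42.5, 37.1 and 42.2 against 55.4 to 68.5 CPM. ITGB7 was read at only 0.129, 0.103 and 0.204 CPM against 0.449 to 0.977 CPM. Those 3 values lie near the 0.128 to 0.167 CPM that 3 counts make, so its place in the list is uncertain.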

How the data were processed

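RNA of 24 libraries (A375 and A549, 4 groups each, 3 labelled biological replicates a group) was analysed from the raw gene counts deposited per library. According to the submitters' processing notes, the authors used bcl2fastq 2.19, Trimmomatic, STAR 2.7.1, featureCounts and the build GRCh38.p10. The strand setting is not given in the sources used here, so reads of genes that overlap on opposite strands cannot be assigned. Of 21386 rows, 21349 were in GENCODE 29, which gave symbols, coordinates and exon lengths.

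Groups followed the labels, and p-values rest on the spread between these replicates. The study describes no separate transduction for each replicate, so the p-values do not cover differences between transductions. The 34 genes, the neighbouring gene lists and the tests were chosen with earlier results of these data known. Full values are given for genes called in at least 1 A375 comparison. Further lists are given by counts and up to 3 called genes with the smallest p in each direction.

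Counts were filtered by filterByExpr, scaled by TMM and tested with edgeR 4.0.16 (R 4.3.3, quasi-likelihood, prior count 0.125) on the libraries compared, with Benjamini-Hochberg adjustment over all genes tested. CPM values were TMM-scaled within a line. For the ranges that set the lines side by side, those of SOX10, the pigment genes and the keratins included, all 24 libraries were scaled together. The same library can therefore carry slightly different CPM values under each scaling. The tests were checked on simulated data, with planted changes larger than the 1.5-fold threshold and the same dispersion for all genes. That check does not cover calls near the threshold or genes whose replicates spread widely. Alternatives were DESeq2 1.42.0 (size factors, Wald test), no filter, 10 counts in every library, glmTreat, a shared dispersion, replicate number as a block, and leaving out each library. In the comparison of uninduced shMCM7 with parental A375 cells, deviations of same-numbered libraries correlated in every pair (r = 0.32, 0.21 and 0.34). The values given for that comparison are from the fit without the block, which ignores this pairing. With the block no call changed. By edgeR TNS1 then had 0.79 with an FDR of 2.54e-07, against 0.80 with an FDR of 0.00700 without the block.

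In A375, 3 counts make 0.0106 to 0.0205 CPM, and in A549 0.128 to 0.167 CPM. None of 24 replicate pairs held identical values. RefSeq start-site windows were found for 26 of the 34 genes. Figures were drawn with matplotlib.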

Additional observations from a re-analysis of the deposited data

Results flagged for a closer look

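For 5 genes the response to Dox differed between shMCM7 and parental A375 cells by a test of the difference itself (edgeR's quasi-likelihood test over 12 libraries, 3 a group). On the log2 scale the response in shMCM7 cells minus that in parental cells was 0.81 for ITGA1, 0.88 for ITGA11, 0.68 for PTK2, -1.31 for ITGB8 and -0.64 for BCAR1. In parental cells the values of ITGA11, PTK2, ITGB8 and BCAR1 with Dox lay at -0.040, -0.019, -0.003 and -0.009, so that nearly all of the difference came from the shMCM7 cells, whereas for ITGA1 the parental value was -0.26 and the shMCM7 value 0.56. The BCAR1 call was lost on leaving out any of 6 single libraries, named beside that result. With 3 libraries a group, the extreme library of a group was not tested as an outlier.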

How the results depend on the processing

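Of 252 counts of called or non-overlapping genes recomputed under the alternatives, 235 stayed within 1.5 times the reported count, and of 1041 values of single called genes 1009 kept direction and call, 32 lost the call and 0 turned direction. Testing against the 1.5-fold change itself (glmTreat) left 0 up and 1 down in induced A375 shMCM7 cells, 0 up before induction, 1 down against parental cells with Dox, and 0 up and 1 down for the difference of the responses. Where 1 stayed down it was ITGB8. The count up against parental cells with Dox under glmTreat is not given here. Leaving out 1 library at a time gave 2 to 3 up and 2 to 5 down in induced shMCM7 cells, 0 to 1 up before induction, and 1 to 4 down for the difference of the responses. In parental A549 cells by label it gave 0 to 1 up, the 1 being ITGB4 without parental replicate 3 without Dox (log2 fold change 0.84, FDR 0.0287, edgeR). The cause of these changes was not tested. With the replicate block, all 32 results kept their call (ITGB8 -1.30, FDR 3.09e-06, edgeR). The values reported in every comparison are from fits without the block. In the A375 and A549 comparisons other than the uninduced one, at least 1 same-numbered pair correlated at 0.1 or below. Between 0 and 6 of 6 libraries correlated best with their own number, 6 in the induced A375 shMCM7 comparison (r = 0.26, 0.088 and 0.23). Between the lines TNS1 was not called without any 1 of the A549 libraries low in MCM7 (-0.58, -0.58 and -0.53), and TNS1 and ITGB5 not under glmTreat. In A549, depth limits genes read near 0.128 to 0.167 CPM, such as ITGA9 and ITGB7.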
